A study of Mus musculus with 12 samples.

Results

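The genes described here make, carry, break down and sense prostaglandin E2: Pla2g4a, Ptgs1, Ptgs2, Ptges, Slco2a1, Hpgd and the receptors Ptger1, Ptger2, Ptger3 and Ptger4. They were found by gene name, through the transcript accession in the scanner files, and all 10 were on the array, with 13 of its 39429 probes and 10 of its 30139 genes or transcripts. Their messenger RNA was measured on 12 single-colour Agilent mouse arrays in 3 groups of 4. Polyps and normal colorectal tissue came from C57BL/6N mice heterozygous for the Apc Δ716 allele, labelled Apc+/Δ716 or Apc+/-, and a further group of normal colorectal tissue came from wild-type C57BL/6N mice. All mice were female and 14 weeks old, and the labels name no treatment. Apc restrains Wnt signalling as a tumour suppressor. The Δ716 allele encodes a truncated protein and is carried by every cell of the mutant mice, so their normal tissue is heterozygous too. Mice 103, 106, 107 and 110 each gave a polyp array and a normal array. The sources used here do not say whether a polyp sample pooled several polyps.

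Prostaglandin E2 is made when a phospholipase A2 frees arachidonic acid from membranes, a cyclooxygenase (Ptgs1 or Ptgs2) turns it into prostaglandin H2, and a terminal synthase such as Ptges finishes the product. The transporter Slco2a1 takes prostaglandins into cells, where the dehydrogenase Hpgd oxidises them to inactive forms, and the receptors EP1 to EP4, encoded by Ptger1 to Ptger4, carry the signal from the cell surface. In the intestine the pathway is known for its part in mucosal defence and in polyp growth, and drugs that block Ptgs2 reduce polyps in mice with Apc mutations.

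Ptgs2, Hpgd and Slco2a1 were called against both normal groups under every processing setting run, and their start regions are shown for that reason. Each runs 250 bases before to 50 bases after the annotated start in RefSeq (GRCm38.p6), read on the gene's own strand. Ptgs2 lies at chr1:150099781-150100080 (plus strand), Hpgd at chr8:56294302-56294601 (plus strand) and Slco2a1 at chr9:103008237-103008536 (plus strand). Capitals mark the motifs found.
Ptgs2: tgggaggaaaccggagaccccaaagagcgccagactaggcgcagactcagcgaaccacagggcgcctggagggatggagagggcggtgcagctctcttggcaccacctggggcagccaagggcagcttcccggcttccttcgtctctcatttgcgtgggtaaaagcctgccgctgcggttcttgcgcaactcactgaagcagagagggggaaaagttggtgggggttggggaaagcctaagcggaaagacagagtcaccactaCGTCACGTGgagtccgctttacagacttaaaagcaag
Hpgd: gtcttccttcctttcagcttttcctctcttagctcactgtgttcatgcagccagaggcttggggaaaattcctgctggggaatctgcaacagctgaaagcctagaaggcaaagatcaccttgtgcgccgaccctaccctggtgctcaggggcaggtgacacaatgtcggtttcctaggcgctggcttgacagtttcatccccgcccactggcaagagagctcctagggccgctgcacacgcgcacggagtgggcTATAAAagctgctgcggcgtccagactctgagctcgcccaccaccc
Slco2a1: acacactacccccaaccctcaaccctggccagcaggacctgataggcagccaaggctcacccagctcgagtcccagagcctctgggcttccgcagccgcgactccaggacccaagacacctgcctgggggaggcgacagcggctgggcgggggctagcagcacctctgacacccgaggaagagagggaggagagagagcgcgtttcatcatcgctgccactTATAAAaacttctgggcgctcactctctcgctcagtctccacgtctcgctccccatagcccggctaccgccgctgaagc
The motifs searched on both strands were the cAMP response element half-site TGACG, the AP-1 site TGANTCA, the NF-kB start GGGANTT, the TCF/LEF site CTTTGAT, the TATA box TATAAA and the E-box CACGTG. They occur in 20.8%, 7.81%, 16.5%, 3.73%, 13.6% and 7.15% of 32851 promoters of this length. In Ptgs2 the run in capitals holds a half-site on the opposite strand at +14 that overlaps an E-box at +17, counted from the annotated start as +1. Hpgd has the TATA box letters at +5, past the annotated start, and Slco2a1 has them at −29. These are matches of letters, and whether any acts as a site was not tested. No TCF/LEF, AP-1 or NF-kB letters were found in these 3 windows. Of the 9 members with an entry in the table, Pla2g4a also had a TATA box, on the opposite strand at −200 of the second of its 2 annotated starts, and the other members had none of the 6 motifs.

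Between 64.6% and 73.8% of 43020 spots per array were well above background and no spot was saturated. A level is the log2 processed signal minus the 75th percentile of its array, so that 0 is the signal of a well expressed probe, and levels of different probes cannot be set against each other. Differences are log2 fold changes ± SE from limma with Benjamini-Hochberg adjusted p over 20082 tested genes, and a change was called at adjusted p under 0.05. All 10 members were tested. The number of arrays, 4 against 4, limits the precision, and p-values measure the spread between these mice. The polyp arrays serve in both comparisons that involve polyps. Wild-type arrays all lay on slide 1, mice 103 and 106 on slide 2 and mice 107 and 110 on slide 3, so slide and genotype cannot be told apart.

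Some of the 10 members differed between polyps and normal tissue, and others were not called. Against Apc normal tissue, 1 of the 10 members was higher (Ptgs2) and 5 were lower (Ptges on its brighter probe, Slco2a1, Hpgd, Ptger1 and Ptger3), while 45.5% of all tested genes were called, 20.5% higher and 24.9% lower. Against wild-type normal tissue, 1 was higher and 6 were lower, Pla2g4a being added, with 60.2% of all genes called, 27.4% higher and 32.8% lower. The members' share of 6 in 10 and 7 in 10 stands near those backgrounds, so what follows turns on the size and direction of single genes. The median difference of the members was −0.53 against Apc normal and −0.46 against wild-type tissue, where that of all genes was −0.06 and −0.05. The groups did not overlap for those 6 members against Apc normal tissue (45.1% of all genes) and those 7 against wild-type tissue (56.7% of all genes). The plot of member levels by array shows all 3 groups.

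**Figure D1:**
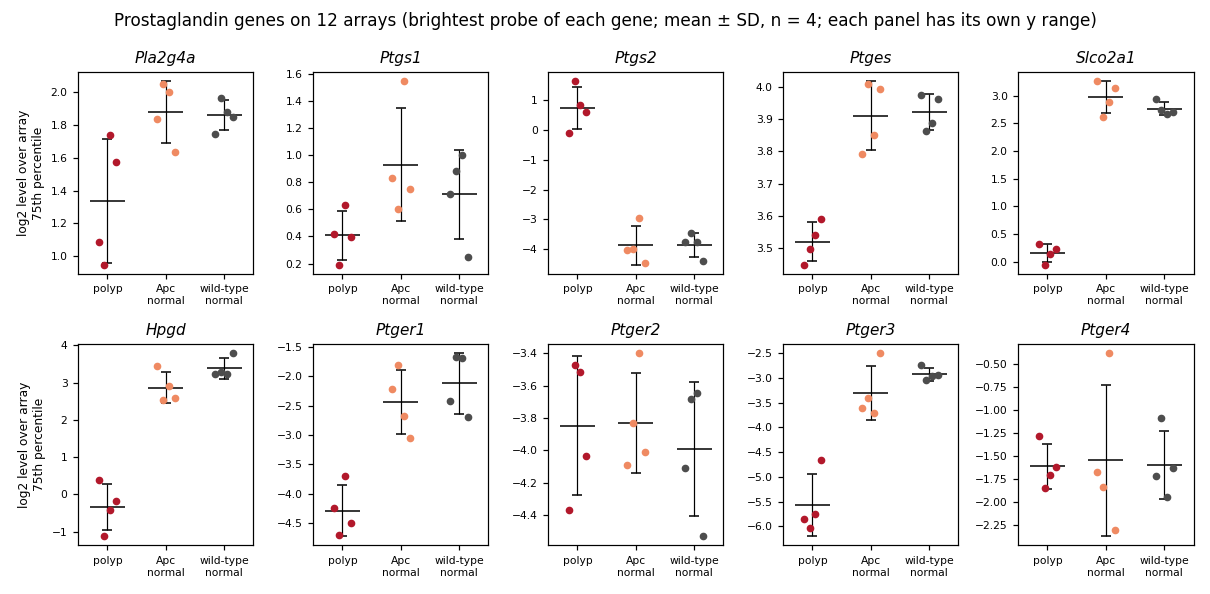
Log2 level over the array's 75th percentile (y axis, own range in each panel) of the brightest probe of each member on the 4 polyp, 4 Apc normal and 4 wild-type normal arrays. Points are arrays and bars are mean ± SD (n = 4). Ptgs2 is high in all 4 polyps (−0.09 to 1.64) and Hpgd, Slco2a1, Ptger1 and Ptger3 are low there, while Ptger2 and Ptger4 overlap across groups.

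Ptgs2, the inducible cyclooxygenase, was far higher in polyps. Its probe (chr1:151954744-151954803, plus strand, mm9) read −0.09, 1.64, 0.84 and 0.61 in the polyps of mice 103, 106, 107 and 110, against −4.04, −4.00, −2.95 and −4.48 in their normal tissue and −3.75, −3.45, −3.78 and −4.41 in wild-type tissue of mice 102, 104, 105 and 108. Every polyp array was above all 8 normal arrays, and among the normal arrays that of Apc mouse 107 was the highest. The rise was 24.6-fold over Apc normal tissue (4.62 ± 0.43, limma adjusted p = 0.000157) and 24.2-fold over wild-type tissue (4.60 ± 0.36, adjusted p = 2.57e-05). Within mice 103, 106, 107 and 110 the difference of polyp and normal tissue was 3.95, 5.65, 3.79 and 5.09. It was 4.80 on slide 2 (adjusted p = 0.0225) and 4.44 on slide 3 (adjusted p = 0.0380), with 2 arrays against 2 each.

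Ptgs1, the cyclooxygenase that most cells express constantly, did not follow Ptgs2. Its probe (chr2:36107644-36107703, plus strand, mm9) read 0.42, 0.19, 0.63 and 0.40 in polyps, against 0.83, 0.60, 1.55 and 0.75 in Apc normal tissue and 0.71, 0.88, 1.0 and 0.25 in wild-type tissue, in the same order of mice. Polyp and Apc normal levels overlapped by a narrow margin, and each polyp stood below the normal tissue of its own mouse, by 0.35 to 0.91. The difference was −0.52 ± 0.21 (limma adjusted p = 0.0788), and with mouse number as a block it passed the threshold (adjusted p = 0.0300). Against wild-type tissue it was −0.30 ± 0.17 (adjusted p = 0.167), or −0.46 (adjusted p = 0.0214) without wild-type mouse 108.

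Pla2g4a, the cytosolic phospholipase A2 that releases arachidonic acid, was modestly lower in some polyps. Its probe (chr1:151676814-151676873, minus strand, mm9) read 1.08, 0.95, 1.74 and 1.58 in polyps, against 1.84, 2.05, 2.0 and 1.63 in Apc normal tissue and 1.75, 1.96, 1.88 and 1.85 in wild-type tissue. The polyps of mice 103, 106 and 110 were below every normal array, and that of mouse 107 was below every wild-type array but above the normal tissue of mouse 110. Against Apc normal tissue the difference was −0.54 ± 0.20 (limma adjusted p = 0.0562), which missed the threshold. It was −0.93 on slide 2 (adjusted p = 0.0494) and −0.16 on slide 3 (adjusted p = 0.655), and −0.68 without the polyp of mouse 107 (adjusted p = 0.0276). Against wild-type tissue Pla2g4a fell 1.44-fold (−0.52 ± 0.18, adjusted p = 0.0350), and this call ended without polyp 103 or 106 or wild-type mouse 104, 105 or 108 (adjusted p from 0.0649 to 0.0837) and under quantile normalization alone (adjusted p = 0.0805) or after normexp (0.0742) and no filter on dim probes (0.0589).

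Ptges, the inducible prostaglandin E synthase of the membrane, was read by 2 probes that moved in opposite directions. They lie at bases 364 and 3583 of the same transcript in the array annotation, at chr2:30748214-30748273 and chr2:30744995-30745054 (minus strand, mm9). Their distance is 3219 bases both in the transcript and in the genome, so no intron lies between them. The probe at base 364 read −1.62, −0.31, −0.95 and −1.08 in polyps, against −3.11, −1.90, −3.23 and −1.97 in Apc normal tissue and −2.49, −2.87, −2.43 and −3.64 in wild-type tissue. All 4 polyps were above all 8 normal arrays. Its rise was 1.56 ± 0.39 over Apc normal tissue (limma adjusted p = 0.0126 over 26112 probes) and 1.87 ± 0.34 over wild-type tissue (adjusted p = 0.00171).

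The probe at base 3583, the brighter of the pair and the one counted for the gene, read 3.45, 3.50, 3.54 and 3.59 in polyps, against 3.79, 4.01, 3.85 and 3.99 in Apc normal tissue and 3.97, 3.86, 3.89 and 3.96 in wild-type tissue. Here all 4 polyps were below all 8 normal arrays, within a narrow range of levels. It fell by 0.39 ± 0.10 against Apc normal tissue (1.31-fold, limma adjusted p = 0.0118) and by 0.40 ± 0.07 against wild-type tissue (1.32-fold, adjusted p = 0.00187). That call ended with quantile normalization (−0.15, adjusted p = 0.275, and against wild-type tissue −0.16, adjusted p = 0.0739), with normexp correction followed by quantile normalization against Apc normal tissue (−0.15, adjusted p = 0.205), and on slide 2 (−0.43, adjusted p = 0.199) and slide 3 (−0.35, adjusted p = 0.234) alone. The mean over both probes turned to 0.59 (adjusted p = 0.0689) against Apc normal and 0.73 (adjusted p = 0.00825) against wild-type tissue. The rise at base 364 kept its sign and its call in the scalings, the mouse block and the arrays left out that were run on single probes (1.21 to 1.78 against Apc normal tissue, adjusted p = 0.00586 to 0.0355). In the RefSeq gene table the interval of Ptges overlaps a long noncoding RNA, Gm52550, and a pseudogene, Gm13400, and what part they have in either probe's signal was not tested. The direction of Ptges as a gene is therefore not given.

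**Figure D2:**
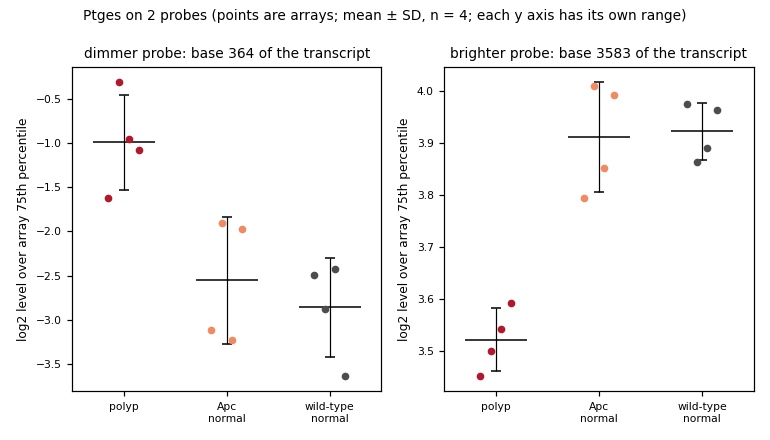
Log2 level (y axis, own range in each panel) of the Ptges probes at base 364 (left) and base 3583 (right) on the polyp, Apc normal and wild-type normal arrays. Points are arrays and bars are mean ± SD (n = 4). Polyps average −0.99 on the left, above both normal groups, and 3.52 on the right, below both.

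Slco2a1, the prostaglandin transporter, fell in every polyp. Its probe (chr9:102990100-102990159, plus strand, mm9) read 0.31, −0.05, 0.14 and 0.22 in polyps, against 3.25, 2.62, 2.88 and 3.14 in Apc normal tissue and 2.94, 2.73, 2.67 and 2.71 in wild-type tissue. The 4 polyp arrays lay close together and far below the lowest normal array. The fall was 7.04-fold against Apc normal tissue (−2.82 ± 0.16, limma adjusted p = 3.36e-05) and 6.09-fold against wild-type tissue (−2.61 ± 0.11, adjusted p = 2.35e-06). On slides 2 and 3 alone it was −2.80 and −2.83. Endothelial cells are a known site of Slco2a1. Of 7 endothelial markers 1 was higher and 1 lower in polyps against Apc normal tissue, and 3 were higher and 0 lower against wild-type tissue. Their mean list level was −1.25 to −0.65 in polyps, −1.41 to −1.01 in Apc normal and −1.61 to −0.92 in wild-type tissue. The part of endothelial or other cells in the fall of Slco2a1 was not tested.

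Hpgd, 15-hydroxyprostaglandin dehydrogenase, fell further. Its brighter probe (chr8:58799399-58799458, plus strand, mm9) read 0.38, −1.12, −0.43 and −0.18 in polyps, against 3.45, 2.52, 2.90 and 2.60 in Apc normal tissue and 3.23, 3.29, 3.23 and 3.80 in wild-type tissue. All polyps were far below all normal arrays, and the fall within mice 103, 106, 107 and 110 was −3.07, −3.65, −3.33 and −2.78. It was 9.23-fold against Apc normal tissue (−3.21 ± 0.33, limma adjusted p = 0.000247) and 13.2-fold against wild-type tissue (−3.72 ± 0.30, adjusted p = 2.85e-05). A second probe 458 bases upstream in the transcript (chr8:58798941-58799000) gave −3.27 ± 0.34 and −3.74 ± 0.30. On slides 2 and 3 alone the brighter probe gave −3.36 (adjusted p = 0.0407) and −3.05 (adjusted p = 0.0255).

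Absorptive colonocytes, the mature surface cells of the colon in which Hpgd is known to be made, had lower markers in polyps as well. Of 8 such markers 7 fell against either normal group, and their mean list level was 2.24 to 3.18 in polyps, 5.20 to 6.17 in Apc normal and 5.61 to 6.14 in wild-type tissue. Each of these markers was well above background on at least 1 array of every group. Of 6 general epithelial markers 3 fell against Apc normal and 5 against wild-type tissue, with a list level of 5.12 to 5.41 in polyps, 5.58 to 5.94 in Apc normal and 5.59 to 5.95 in wild-type tissue. The part of the colonocyte markers in the fall of Hpgd was not tested. In bulk tissue, fewer cells of a type and less RNA per cell cannot be told apart.

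Among the 4 polyps, Ptgs2 was lowest in mouse 103 and highest in mouse 106, with mice 110 and 107 between. Hpgd, Slco2a1 and Ptger4 ran in the opposite order, highest in mouse 103 and lowest in mouse 106. Ptger4 (−1.85 to −1.28 in polyps) was not called against either normal group, so this order is not particular to Hpgd and Slco2a1. This describes 4 arrays and carries no test, and the spread of Slco2a1 (−0.05 to 0.31) is small beside that of Ptgs2 (−0.09 to 1.64).

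The EP receptors split into a pair that fell and a pair with no detected difference. Ptger3, encoding the EP3 receptor that lowers cAMP, read −5.86, −6.02, −5.75 and −4.65 in polyps, against −3.60, −3.42, −3.71 and −2.50 in Apc normal tissue and −2.74, −3.05, −2.97 and −2.94 in wild-type tissue (chr3:157268044-157268103, plus strand, mm9). Only the polyps of mice 106 and 110 were well above background, so the fall rests on levels near the detection limit. It was 4.81-fold against Apc normal tissue (−2.27 ± 0.37, limma adjusted p = 0.00171) and 6.25-fold against wild-type tissue (−2.64 ± 0.28, adjusted p = 0.000107). A second probe (chr3:157307508-157307567), well above background in 1 polyp of 4, gave −3.26 ± 0.40 and −3.56 ± 0.32. With normexp correction followed by quantile normalization the falls were −0.98 and −1.21 on the brighter probe.

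Ptger1, encoding the EP1 receptor that raises intracellular calcium, read −4.24, −4.71, −3.71 and −4.50 in polyps, against −2.22, −1.80, −2.69 and −3.05 in Apc normal tissue and −2.43, −1.67, −1.69 and −2.70 in wild-type tissue (chr8:86193943-86194002, plus strand, mm9). The groups did not overlap. It fell 3.61-fold against Apc normal tissue (−1.85 ± 0.31, limma adjusted p = 0.00200) and 4.49-fold against wild-type tissue (−2.17 ± 0.30, adjusted p = 0.000411). With normexp and quantile normalization together they were −1.14 and −1.40. On slide 3 alone neither receptor passed the threshold, with Ptger3 at −2.10 (adjusted p = 0.119) and Ptger1 at −1.24 (adjusted p = 0.113), while on slide 2 both did (−2.43, adjusted p = 0.0129, and −2.46, adjusted p = 0.0191).

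Smooth muscle markers and most enteric nerve markers were lower in polyps as well, as were most of the absorptive colonocyte markers above. All 8 smooth muscle markers fell against either normal group, with a mean list level of 0.18 to 1.69 in polyps, 4.41 to 4.86 in Apc normal and 4.94 to 5.51 in wild-type tissue. Each was well above background on at least 1 array of every group. Of 6 markers of enteric neurons and glia 5 fell against either normal group, with a list level of −5.30 to −3.99 in polyps, −2.79 to −2.12 in Apc normal and −2.38 to −1.45 in wild-type tissue. Their part in the falls of Ptger1 and Ptger3 was not tested.

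Ptger2 and Ptger4 encode EP2 and EP4, the receptors that raise cAMP. Ptger2 (chr14:45622004-45622063, plus strand, mm9) read −4.37, −3.47, −3.51 and −4.04 in polyps, against −4.09, −3.83, −3.40 and −4.01 in Apc normal tissue and −4.11, −3.69, −3.65 and −4.53 in wild-type tissue. The difference was −0.02 ± 0.24 against Apc normal tissue (limma adjusted p = 0.965) and 0.15 ± 0.27 against wild-type tissue (adjusted p = 0.656). Ptger4 (chr15:5184419-5184478, minus strand, mm9) read −1.28, −1.85, −1.70 and −1.62 in polyps, against −1.67, −1.84, −0.38 and −2.30 in Apc normal tissue and −1.72, −1.09, −1.95 and −1.64 in wild-type tissue. The groups overlapped for both genes, and the normal tissue of mouse 107 was the highest array for Ptger4. The Ptger4 difference was −0.06 ± 0.38 (adjusted p = 0.904) and −0.01 ± 0.20 (adjusted p = 0.956). These standard errors leave room for changes that 4 arrays a group would not show.

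**Figure D3:**
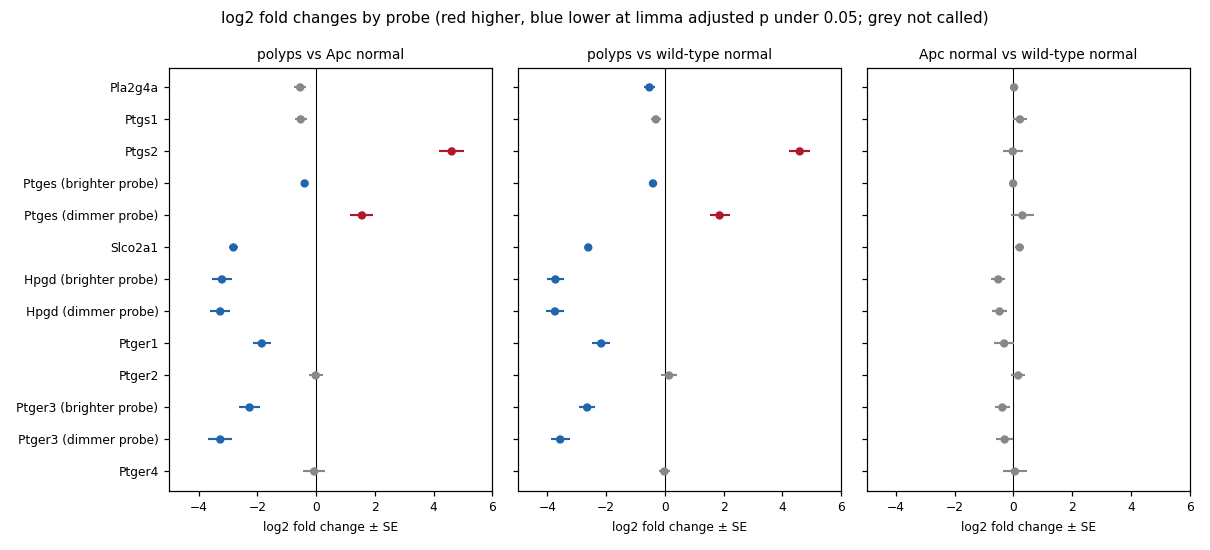
Log2 fold change ± SE (x axis) of each of the 13 member probes for polyps over Apc normal, polyps over wild-type normal and Apc normal over wild-type normal tissue. Red is higher and blue lower at adjusted p under 0.05 over 26112 probes, and grey is not called. Ptgs2 lies at 4.62 and 4.60, the Ptges probes lie on opposite sides of 0, and no probe is called in the right panel.

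**Figure D4:**
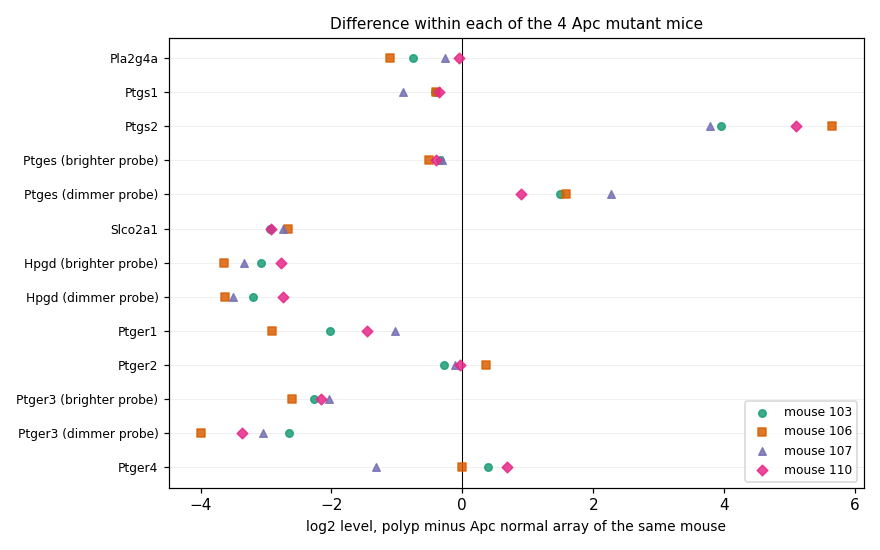
Log2 level of the polyp array minus that of the normal array of the same mouse (x axis) for each member probe, with 1 symbol for each of mice 103, 106, 107 and 110. All 4 mice lie above 0 for Ptgs2 (3.79 to 5.65) and for the dimmer Ptges probe (0.89 to 2.28), and below 0 for Slco2a1, both Hpgd probes, Ptger1 and both Ptger3 probes.

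Normal tissue of Apc mutant mice was set against that of wild-type mice. The mutant mice all bore polyps too, and slide goes with genotype, so the comparison does not isolate the allele. No member was called by limma, none had an unadjusted p under 0.05, and 0.169% of all genes were called, 0.149% higher and 0.0199% lower. At an unadjusted p under 0.05 there were 3439 of 20082 genes. The nearest member was Hpgd (−0.52 ± 0.23, unadjusted p = 0.0562, adjusted p = 0.305), whose second probe gave −0.48 ± 0.25. Ptgs2 differed by −0.02 ± 0.34 (adjusted p = 0.981) and Slco2a1 by 0.21 ± 0.15 (adjusted p = 0.522). All 10 members overlapped between the groups, where 10.3% of all genes did not. Over the 10 members the differences ran from −0.52 to 0.22, with a median of 0.00.

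Genes around the pathway were listed by role, and 44 of 48 were tested. Against Apc normal tissue 21 were higher and 9 lower in polyps, with a median of 0.63, where 45.5% of all genes were called, 20.5% higher and 24.9% lower. Against wild-type tissue 22 were higher and 10 lower, where 60.2% of all genes were called. Several of the single lists below, such as the phospholipases, have a called share near that background. None was called between Apc normal and wild-type tissue. The plot of pathway genes shows each.

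Among 9 further phospholipases A2, 3 were higher and 2 lower against Apc normal tissue. Pla2g2a, a secreted form, stood at 4.18 ± 0.05 in polyps, 0.49 ± 0.38 in Apc normal and −1.59 ± 1.04 in wild-type tissue (SD, n = 4). The rise of its RNA over Apc normal tissue was 12.9-fold (3.69 ± 0.18, limma adjusted p = 2.27e-05). Whether these mice make a working enzyme from that RNA was not tested. Pla2g12a, another secreted form, was 4.35-fold higher (2.12 ± 0.21, adjusted p = 0.000218). The secreted forms Pla2g5 and Pla2g10 were lower, by −1.87 ± 0.26 and −1.54 ± 0.19.

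Of 7 other terminal synthases 3 were higher and 2 lower. Ptgds, a prostaglandin D2 synthase, was 4.19-fold higher (2.07 ± 0.28, limma adjusted p = 0.000782). Ptgis, the prostacyclin synthase, was 5.60-fold lower on its brighter probe (−2.48 ± 0.26, adjusted p = 0.000247), which stood at −3.43 ± 0.44 in polyps, −0.95 ± 0.36 in Apc normal and −0.42 ± 0.35 in wild-type tissue. Its second probe differed by only −0.36 between polyps and Apc normal tissue.

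Of 4 further genes of breakdown and export, 2 were higher and 2 lower. Abcc4, a pump that carries prostaglandins out of cells, stood at 1.82 ± 0.11 in polyps, −0.78 ± 0.45 in Apc normal and −0.89 ± 0.17 in wild-type tissue. The rise over Apc normal tissue was 6.07-fold (2.60 ± 0.21, limma adjusted p = 0.000106). Cbr1, a carbonyl reductase that acts on prostaglandins among other substrates, was 3.71-fold lower (−1.89 ± 0.16, adjusted p = 0.000114). Abcc4 and Slco2a1, for export and uptake, both had polyp levels that did not overlap those of normal tissue, one above and the other below. Such non-overlap was common, at 45.1% of all genes against Apc normal and 56.7% against wild-type tissue.

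Of 5 receptors for other prostanoids, Ptgdr, Ptgdr2 and Ptgfr were not tested because they were not well above background throughout any group. Tbxa2r, the thromboxane receptor, fell 2.39-fold (−1.26 ± 0.16, limma adjusted p = 0.000531), and Ptgir, the prostacyclin receptor, differed by 0.50 ± 0.33 (adjusted p = 0.248).

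In the lipoxygenase branch, which uses the same arachidonic acid, 4 of 10 genes were higher and 1 was lower. Alox12, the platelet-type 12-lipoxygenase, stood at 2.30 ± 0.40 in polyps, −4.12 ± 0.30 in Apc normal and −5.18 ± 0.52 in wild-type tissue. The rise over Apc normal tissue was 85.2-fold (6.41 ± 0.23, limma adjusted p = 8.69e-06). A second probe was well above background on no array of Apc normal tissue and gives no exact fold there. Alox15, another lipoxygenase, was well above background on no array of Apc normal tissue, and polyps were at least 7.65-fold higher (adjusted p = 0.000496). Against wild-type tissue, where 3 of 4 arrays measured it, the difference was 2.12 ± 0.61 (adjusted p = 0.0163), with overlapping groups. For such genes the bound divides the polyp mean by a detection limit, which on each normal array is the dimmest signal still well above background, or the probe's own signal if brighter.

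Of 8 genes listed for the cAMP response, 7 were tested, with 4 higher and 1 lower. Nr4a1, an early-response nuclear receptor, was 3.86-fold higher (1.95 ± 0.25, limma adjusted p = 0.000548). Crem, a cAMP-responsive transcription factor, was 3.64-fold higher on its brightest probe (1.86 ± 0.28, adjusted p = 0.00124) and 1.74 higher on the log2 scale on a second. Its other 2 probes were mostly not well above background and give no fold. Nr4a3 did not enter the tests. Whether EP2 or EP4 had a part in these changes was not tested.

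All 5 cytokines known to induce Ptgs2 were higher in polyps than in Apc normal tissue. Il1b, interleukin 1 beta, stood at 2.48 ± 0.81 in polyps, −2.85 ± 0.92 in Apc normal and −4.00 ± 0.88 in wild-type tissue, a 40.0-fold rise over Apc normal levels (5.32 ± 0.54, limma adjusted p = 0.000216). Il6, interleukin 6, was well above background on no normal array, and polyps were at least 53.3-fold higher than Apc normal (adjusted p = 0.000301) and at least 61.1-fold higher than wild-type tissue (adjusted p = 2.97e-05). The median of the 5 was 4.81, or 4.69 with Il1a and Il6 at their bounds. Most neutrophil markers and the tested mast cell markers were higher in polyps, as Ptgs2 and these cytokines were. Of 6 neutrophil markers 4 were higher against both normal groups, while Ly6g (−1.41 ± 0.33, adjusted p = 0.00640) and Csf3r (−0.47 ± 0.13, adjusted p = 0.0142) were lower against wild-type tissue. Against Apc normal tissue these 2 differed by −0.92 ± 0.74 and −0.06 ± 0.16 and were not called. The neutrophil list had a mean list level of 1.58 to 2.68 in polyps, −2.02 to −0.08 in Apc normal and −2.44 to −1.60 in wild-type tissue. All 6 tested mast cell markers of 7 were higher against both normal groups, with list levels of −1.13 to 1.08, −3.86 to −3.00 and −5.36 to −4.50 in the same 3 groups. Among the neutrophil markers Cxcr2 was well above background on no normal array and Mmp9 on no wild-type array, and among the mast cell markers Ms4a2 was so on no normal array and Fcer1a on no wild-type array. Between Apc normal and wild-type tissue, where Ptgs2 differed by −0.02 ± 0.34, 1 mast cell marker was called higher and 0 neutrophil markers were called. That marker was Fcer1a (limma adjusted p = 0.0271), well above background on 1 Apc normal array. Other lists had few calls against Apc normal tissue. Macrophage markers gave 1 higher and 0 lower of 7, fibroblast markers 1 and 2 of 8, and tuft cell markers 1 and 1 of 6 tested. The part of any of these cell types in the rise of Ptgs2 was not tested.

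**Figure D5:**
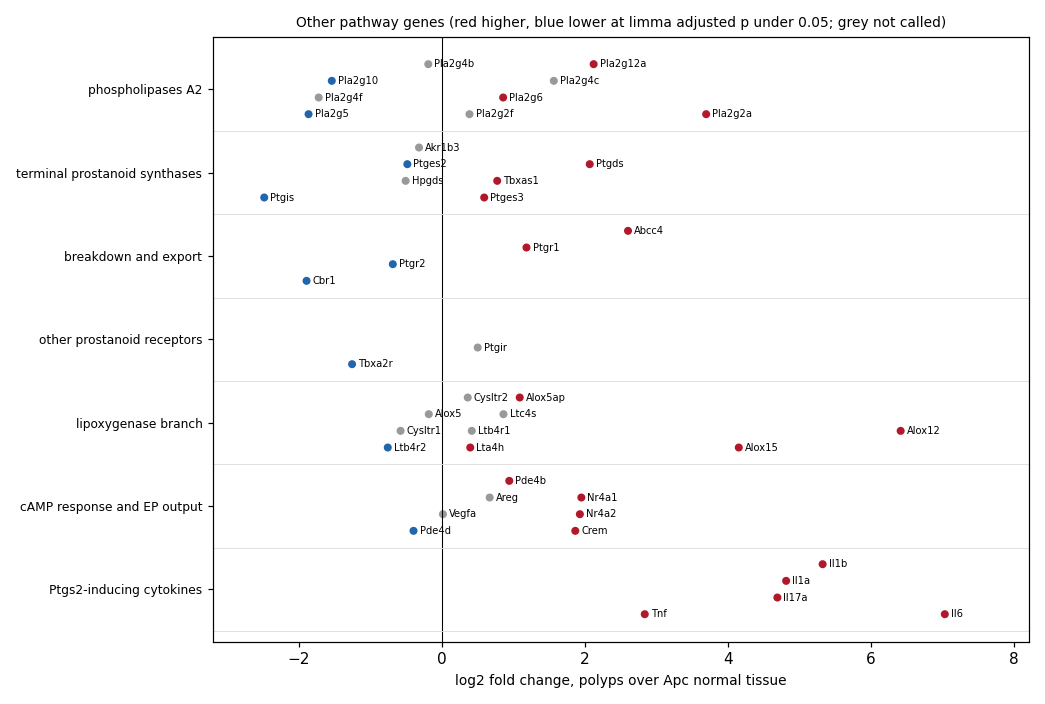
Log2 fold change of polyps over Apc normal tissue (x axis) for the 44 tested pathway genes, grouped by role (rows). Red is higher and blue lower at adjusted p under 0.05, and grey is not called. Alox12 lies at 6.41 and all 5 cytokines lie right of 2, while Ptgis lies at −2.48. Il1a, Il6 and Alox15 were well above background on no Apc normal array, so their points are not exact folds. Their lower bounds are 2.52, 5.74 and 2.94.

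The genes whose profile over the 12 arrays was most like that of Ptgs2, by the root mean square difference of log2 levels after centring each gene, were Gm10636 (0.48), Gm15340 (0.50), Ttc9 (0.50), Il1a (0.52) and Tmem178 (0.53). The normal-tissue levels of Gm10636, Gm15340, Il1a and Tmem178 lay below the detection limit of their arrays (limits of −6.28 to −5.17), and those of Ttc9 on 6 of 8, so their likeness there is between background and a measured level. Genes most like Hpgd were Gm12511 (0.20), Upk1a (0.25), Slc5a8 (0.26), Clic5 (0.26) and Resp18 (0.26). The 12 arrays share their 3 groups, and the difference between polyps and normal tissue makes most of each profile.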

How the data were processed

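Total RNA of polyps and normal colorectal tissue was labelled with Cy3 from a low-input kit and hybridised to 1-colour arrays, per the labels' protocols. The deposited scanner files hold spot intensity, and their background-subtracted processed signal comes from the authors' run of Agilent Feature Extraction, version 10.7.3.1, per the file headers. The authors' value table holds a ratio of intensity to an array constant: on each array that constant brought 99.8% to 99.9% of entries to within 1% of the processed signal. Its column medians were 0.9999 to 1, no centring per gene was seen, and it was used as an alternative only. All its sample columns were matched to labels.

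Spots marked as controls, and 1403 marked as outliers, did not enter. Log2 of the processed signal was averaged per probe, and each array's 75th percentile was subtracted. Of 39429 probes, 27508 were named by accession, 3544 by symbol and 404 by synonym through RefSeq GRCm38.p6, and 7973 kept the file's name. The brightest probe stood for a gene, and a gene entered the tests when some group had it well above background on each of its 4 arrays. Tests used limma 3.58.1 (lmFit and eBayes, two-sided) under R 4.3.3, on the 8 arrays of each comparison. Probe coordinates are mm9, from the files, and promoters GRCm38.p6, and no exon or UTR annotation of mm9 was used here. The steps were tested on simulated data.

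Same-mouse polyp and normal arrays deviated together (r = 0.456, 0.170, 0.143 and 0.283 for mice 103, 106, 107 and 110, against −0.329 to 0.193 for other pairs), and the pairing comes from the mouse numbers in the titles.

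The members and gene lists were chosen with earlier results of these data known. Named were all members, the 2 genes of smallest p in each pathway list, listed genes not detected, and the 5 most like Ptgs2 and Hpgd. Pla2g5 and Pla2g10, Ly6g and Csf3r, Il1a within the cytokine list, Gm52550 and Gm13400 were named after their values were seen. Marker lists of tuft cells, fibroblasts, macrophages, T cells, B and plasma cells and adipocytes were examined too. Against Apc normal tissue they gave 1 higher and 1 lower of 6, 1 and 2 of 8, 1 and 0 of 7, 0 and 0 of 4, 0 and 1 of 6, and 0 and 1 of 3 tested.

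Alternatives were the array median, quantile normalization, the value table, normexp (offset 50) followed by quantile normalization, no or a stricter filter on dim probes, all probes or their mean, all 12 arrays in 1 fit, a variance trend, slide or mouse as a block, each slide alone, each array left out and mouse 107 left out.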

Additional observations from a re-analysis of the deposited data

Results flagged for a closer look

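Among 39 sets of 4 arrays (13 member probes in 3 groups), 2 held an array whose gap to its nearest neighbour exceeded Dixon's 95% critical value for 4 samples. Both were Hpgd in wild-type normal tissue of mouse 108. On the brighter probe that array read 3.80 and the nearest other 3.29, a gap of 0.888 of the group's range. On the second probe it read 2.87 and the nearest other 2.30, a gap of 0.875. Both probes read the same transcript in the same RNA and count as 1 observation. Chance flags about 1 in 20 such groups.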

How the results depend on the processing

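Against Apc normal tissue, 6 members were called. Leaving out each array in turn gave 6 to 7, mouse number as a replicate block gave 7 (Ptgs1 added) and changed no other call among the members, and slide 3 alone, with 2 arrays against 2, gave 3. Of the pathway genes 30 were called, 25 to 31 without 1 array, 32 with the replicate block, 19 on slide 2 alone and 12 on slide 3 alone. Calls over all 20082 genes changed too. There were 9129 in the main fit, 7211 to 8682 without 1 array and 9321 with the replicate block. Slide 2 alone gave 3466 and slide 3 alone 1902. Against wild-type tissue 7 members were called, and 6 to 7 without 1 array, and 32 pathway genes, and 31 to 34 without 1 array. Over all genes 12096 were called there, and 10944 to 11804 without 1 array. Between Apc normal and wild-type tissue no member was called under any setting run. Pathway genes called there were 0, but 1 with all 12 arrays in 1 fit, 3 with slide as a random block (correlation −0.0816), and 0 to 2 without 1 array, the 2 without Apc normal mouse 103. Over all genes that comparison's 34 calls became 226 with all 12 arrays, 814 with the random block, 530 without Apc normal mouse 103, and 2 without filter. The mean over both Ptges probes reversed its sign, to 0.59 against Apc normal and 0.73 against wild-type tissue, which follows from the second probe moving the other way. For the other lost or gained calls of Ptges, Pla2g4a, Ptgs1, Ptger1 and Ptger3, given beside each gene, the cause was not tested. Ptgs2, Hpgd and Slco2a1 kept direction and call against both normal groups in all settings run (3.69 to 4.93, −3.96 to −2.95 and −2.93 to −2.45). Pla2g4a against Apc normal tissue passed with all 12 arrays in 1 fit (adjusted p = 0.0212), a slide random block (0.0267) and a variance trend (0.0453). Ptger3 was not tested under the stricter filter, and signal over background limits it, read near the detection limit in polyps.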
